A study of Mus musculus with 10 samples.

Results

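The genes described here are 10 genes of fibroblast growth factor (FGF) signalling: the ligands Fgf1, Fgf7 and Fgf10, the receptors Fgfr1, Fgfr2, Fgfr3 and Fgfr4, and the genes Etv5, Spry2 and Spry4, which FGF signalling induces. They were chosen by symbol. All 10 were found among the 27179 Entrez genes of the table and all 10 passed the filter on low counts, as did 15301 genes in all. RNA of whole lungs was sequenced from 10 mice. The 5 Flox mice were homozygous for a floxed allele of Ern1 (the gene of IRE1α, a stress sensor of the endoplasmic reticulum whose ribonuclease domain splices Xbp1 mRNA) and had 2 unmodified Shh alleles. The 5 EpithelialKO mice carried the same floxed Ern1 alleles and, on 1 Shh allele, Cre recombinase. The Shh locus drives Cre in lung epithelium, so other lung cells keep Ern1, and no mice with Cre but without floxed alleles were included. Loss of IRE1α and the presence of Cre at Shh therefore cannot be told apart. The labels give no age, sex or batch.

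FGFs are secreted proteins that bind receptor tyrosine kinases together with heparan sulfate and signal largely through the RAS and ERK kinases. In the lung, mesenchymal cells make Fgf7 and Fgf10, and the epithelium receives them through the IIIb splice form of Fgfr2, which is needed for branching of the airways and for the upkeep of alveolar type 2 (AT2) cells. ERK activity switches on the ETS transcription factor gene Etv5 and the Sprouty genes, whose products damp the same pathway.

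The libraries held 14983829 to 21224412 counts in Flox and 16234895 to 18870247 counts in EpithelialKO. Levels are given as CPM, the count of a gene scaled to a common library total. The mean of Ern1 was 16.8 ± 5.28 CPM over Flox mice and 17.3 ± 6.52 CPM over EpithelialKO mice (SD, n = 5 each), so its gene-level count does not check the genotype in whole lung. The lung identity of the tissue was evident from the surfactant gene Sftpc (28590 to 37710 CPM in Flox, 35720 to 44740 CPM in EpithelialKO), the club cell gene Scgb1a1 and the AT1 gene Ager, which were high in every mouse. Flox mice 4 and 6 stood apart from the other 8 mice in Xist, at 215 and 247 CPM against at most 4.06 CPM, and in the Y-linked Ddx3y, which had 0 counts in both. No EpithelialKO mouse had this pattern of sex-linked genes (Xist at most 2.16 CPM, Ddx3y 71.9 to 95.7 CPM). The groups are therefore not balanced in it, and it is partly tied to genotype. Fold changes of the 10 genes without Flox mice 4 and 6 are given beside those that moved by over 1.5 times. Markers of the cell types of the lung were described by counts of signs and by summed levels, with no test of a list. All 14 pan-epithelial, all 13 AT2 and all 8 club and ciliated markers had a positive fold change. Among 11 markers of AT1 cells, which are also epithelial, 8 had a negative one (median log2 value -0.07). So did 12 of 14 fibroblast, 9 of 10 smooth muscle and pericyte, 12 of 13 endothelial and 8 of 9 mesothelial markers. None of these genes passed the threshold, and none was at 0 in every mouse. Of 14 leukocyte markers 11 had a negative fold change, while their summed level was 9749 to 13444 CPM in Flox and 12273.5 to 16182 CPM in EpithelialKO. This sum thus ran against the sign of most of its genes. Lyz2 was in both the leukocyte and the AT2 list, and so was among the genes with a positive fold change. Its share of the leukocyte sum was not computed. The summed levels of all these lists overlapped between the groups except for the endothelial list. In whole-lung RNA, fewer cells of a type and less RNA per cell cannot be told apart.

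None of the 10 FGF genes differed between EpithelialKO and Flox by the quasi-likelihood test of edgeR at an adjusted p under 0.05, a threshold that 0.0392% of the 15301 tested genes passed (0.00654% higher and 0.0327% lower). The DESeq2 and limma-voom tests also called 0 of them. At an unadjusted p under 0.05 there were 4 in edgeR, 4 in DESeq2 and 3 in limma-voom. In edgeR these were Fgf10, Fgfr4 and Spry4, lower in EpithelialKO, and Fgfr3, higher, where 6.52% of all tested genes were lower and 5.87% higher at this level (12.4% in all). The lowest adjusted p was 0.232, for Fgfr4. The median log2 fold change of the 10 genes was -0.03, with 6 negative and 4 positive, against 0.00 (0.001) over all tested genes, of which 50.1% were positive.

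**Figure D1:**
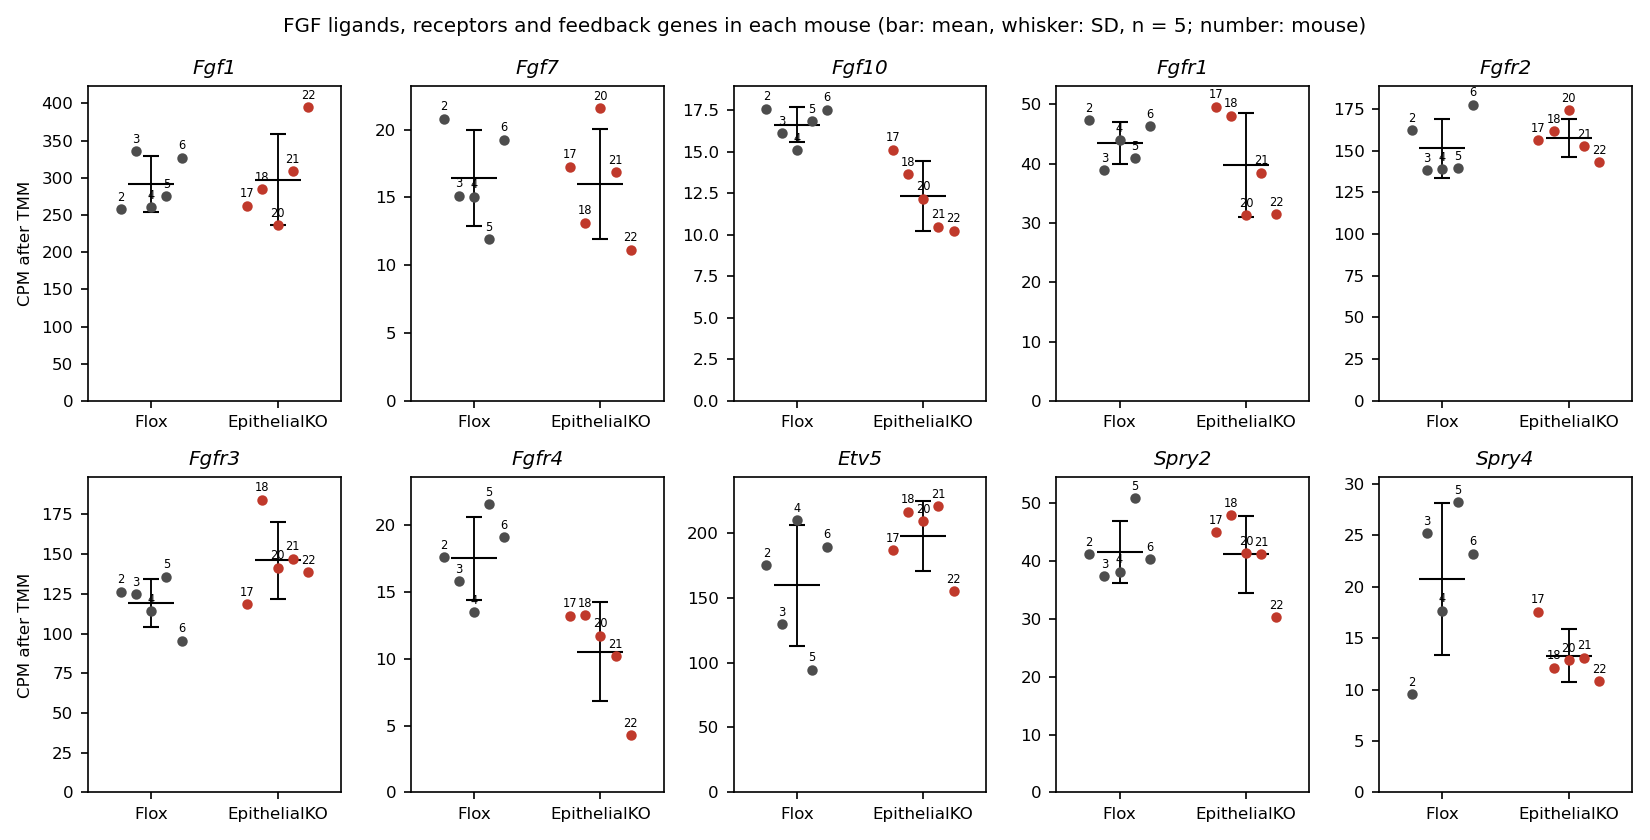
CPM after TMM scaling (vertical axis, from 0) of each FGF gene in each mouse, by group; numbers are mouse numbers, the bar is the mean and the whisker the SD of 5 mice. The Fgfr4 values of EpithelialKO mice (4.28 to 13.2) lie below those of Flox mice (13.5 to 21.6), while the groups overlap in the other 9 genes.

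Fgf10, the mesenchymal ligand of Fgfr2, was lower in EpithelialKO lungs without passing the threshold. Fgf10 (Entrez 14165, GRCm38 chromosome 13, 118714699 to 118792573) stood at 17.6, 16.1, 15.1, 16.8 and 17.5 CPM in Flox mice 2, 3, 4, 5 and 6. EpithelialKO mice 17, 18, 20, 21 and 22 had 15.1, 13.6, 12.2, 10.5 and 10.25 CPM. All 5 EpithelialKO mice lay below the Flox mean, and 4 lay below every Flox mouse; the exception was mouse 17, which was level with Flox mouse 4. The means were 16.6 ± 1.04 and 12.3 ± 2.08 CPM (SD, n = 5 each), which is -0.43 ± 0.15 on the log2 scale (SE; 95% interval -0.75 to -0.12; edgeR adjusted p = 0.248). The fold change lay between -0.52 and -0.37 over 18 alternative fits, and the adjusted p between 0.116 and 0.598. Beside it, the summed level of the 14 fibroblast markers was 3913 to 5049 CPM in Flox and 3618 to 4171 CPM in EpithelialKO, the marker Pdgfra had a log2 fold change of -0.27 ± 0.10 (SE), and the part of fibroblast content in the Fgf10 difference was not tested.

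The other ligands were at like levels in the groups. Fgf7 (Entrez 14178, chromosome 2, 126034658 to 126091185), or keratinocyte growth factor, is also a mesenchymal ligand of Fgfr2. It ranged from 11.9 to 20.8 CPM in Flox and from 11.2 to 21.6 CPM in EpithelialKO. The groups covered the same range, and the log2 fold change was -0.04 with a 95% interval from -0.45 to 0.36 (edgeR adjusted p = 0.964; 0.001 without Flox mice 4 and 6), so the difference from Fgf10 is one of point estimates and was not tested. Fgf1 (Entrez 14164, chromosome 18) is a ligand that binds all FGF receptors. It ranged from 257.5 to 336 CPM in Flox and from 236 to 395 CPM in EpithelialKO, and both the lowest and the highest mouse were EpithelialKO. Its log2 fold change was 0.03 with a 95% interval from -0.24 to 0.30 (edgeR adjusted p = 0.959).

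Among the receptors, Fgfr4 was the one whose groups did not overlap. Fgfr4 (Entrez 14186, chromosome 13, 55152818 to 55168759), which acts together with Fgfr3 in the formation of alveoli after birth, stood at 17.6, 15.8, 13.5, 21.6 and 19.1 CPM in Flox mice 2, 3, 4, 5 and 6. EpithelialKO mice 17, 18, 20, 21 and 22 had 13.2, 13.2, 11.7, 10.2 and 4.28 CPM. Every EpithelialKO mouse lay below every Flox mouse, a pattern that 1.48% of all tested genes showed (3.12% with separation in either direction), and the gap between Flox mouse 4 and the nearest EpithelialKO mice was narrow. The mean went from 17.5 ± 3.09 to 10.5 ± 3.72 CPM (SD, n = 5 each), or to 0.602 of the Flox level (log2 fold change -0.73 ± 0.24, SE; 95% interval -1.25 to -0.22; edgeR adjusted p = 0.232). Mouse 22 was far below the rest, and without it the log2 fold change was -0.53. Over all 18 alternatives it lay between -0.83 and -0.53, with adjusted p between 0.0869 and 0.526. Beside it, the 13 endothelial markers summed to 4043.5 to 5081 CPM in Flox and 3115 to 3981 CPM in EpithelialKO, also without overlap. The 10 smooth muscle and pericyte markers summed to 527 to 663 CPM in Flox and 381.5 to 620 CPM in EpithelialKO. The 14 fibroblast markers summed to 3913 to 5049 CPM in Flox and 3618 to 4171 CPM in EpithelialKO. In the latter lists the groups overlapped. The part of these cell types in the Fgfr4 difference was not tested.

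The promoters of Fgfr4, of Fgf10 and of Etv5 are shown because the first 2 genes had the lowest p among the 10 and because Etv5 is the other gene of the 10 with a match to the XBP1 letters. Each is the 250 bases before the RefSeq start (GRCm38.p6), written 5′ to 3′ on the strand of the gene, with matches to GACGTG (the core of the element that XBP1 binds) and to CCGGAA (an ETS core) in capitals, on either strand; these motifs do not overlap each other here.
Fgfr4, chr13:55152568-55152817, plus strand: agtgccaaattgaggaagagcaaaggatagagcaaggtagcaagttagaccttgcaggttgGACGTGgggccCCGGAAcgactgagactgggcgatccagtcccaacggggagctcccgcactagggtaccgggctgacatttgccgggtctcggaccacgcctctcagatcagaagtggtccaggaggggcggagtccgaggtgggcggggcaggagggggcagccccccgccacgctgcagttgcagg
Fgf10, chr13:118714449-118714698, plus strand: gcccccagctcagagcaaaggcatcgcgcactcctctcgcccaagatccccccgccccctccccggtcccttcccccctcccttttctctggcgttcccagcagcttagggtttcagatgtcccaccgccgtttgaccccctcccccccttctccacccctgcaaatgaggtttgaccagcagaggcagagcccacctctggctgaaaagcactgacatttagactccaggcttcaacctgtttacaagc
Etv5, chr16:22439571-22439820, minus strand: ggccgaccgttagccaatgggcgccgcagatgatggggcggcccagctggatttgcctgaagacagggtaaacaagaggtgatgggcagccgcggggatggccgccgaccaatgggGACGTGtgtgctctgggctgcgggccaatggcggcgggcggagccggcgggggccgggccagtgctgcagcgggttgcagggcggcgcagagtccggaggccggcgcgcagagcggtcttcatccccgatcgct
GACGTG was found in 5.2% of 32851 promoter windows of this length and in 2 of the 7 FGF genes with an entry, Fgfr4 and Etv5. CCGGAA was found in 12.0% of windows and in 1 of the 7, Fgfr4. The hedgehog effector motif TGGGTGGTC was found in 0.225% of windows and in 0 of the 7. The Fgf10 window held none of them, and neither did the window of a second listed start of Etv5. The table had no entry for Fgf1, Fgfr1 or Spry4. The percentages are of windows, while the counts are of genes with a match in any window. Fgfr3 and Etv5 had more than 1 window each, so the counts and percentages are not on the same base. These matches describe letters and do not show binding.

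Fgfr3 ran the other way from Fgfr4. Fgfr3 (Entrez 14184, chromosome 5, 33721724 to 33737068) stood at 126, 125, 114, 136 and 95.7 CPM in Flox mice 2, 3, 4, 5 and 6. EpithelialKO mice 17, 18, 20, 21 and 22 had 119, 184, 142, 147 and 138.5 CPM. Of the EpithelialKO mice, 4 lay above every Flox mouse, and mouse 17 lay within the Flox range. The log2 fold change was 0.29 ± 0.12 (SE; 95% interval 0.04 to 0.54; edgeR adjusted p = 0.316), and 1 or 2 mice decided whether its unadjusted p was under 0.05. It was 0.181 without Flox mice 4 and 6 (unadjusted p = 0.182), 0.194 without EpithelialKO mouse 18 (unadjusted p = 0.0973) and 0.221 without Flox mouse 6 (unadjusted p = 0.077), all in edgeR, with adjusted p between 0.158 and 0.8 over the 18 alternatives. Of the joined exons of Fgfr3, 13.9% of bases are shared with a gene on the other strand, G630022F23Rik, and since the strand setting of the counting is not given in the sources used here, reads of the genes may not be separated. Beside it, the summed level of the 14 pan-epithelial markers was 1583.5 to 1924 CPM in Flox and 1875 to 2413 CPM in EpithelialKO, and its part in the Fgfr3 difference was not tested. Fgfr3 lies on the same chromosome as Shh, the locus that carries Cre in the EpithelialKO mice only. The part of sequence linked to the Cre allele in the Fgfr3 difference was not tested either.

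Fgfr2 and Fgfr1 showed no difference beyond the spread of the mice. Fgfr2 (Entrez 14183, chromosome 7, 130162451 to 130266808), the receptor of Fgf7 and Fgf10, ranged from 138 to 177.5 CPM in Flox and from 143 to 174 CPM in EpithelialKO. The EpithelialKO values lay wholly inside the Flox range, and the log2 fold change of 0.06 had a 95% interval from -0.14 to 0.26 (edgeR adjusted p = 0.852). It was 0.105 without Flox mice 4 and 6 and lay between 0.02 (without EpithelialKO mouse 20) and 0.122 (without Flox mouse 6) when 1 mouse was left out. Counts per gene do not separate the IIIb form of epithelium from the IIIc form of mesenchyme. Fgfr1 (Entrez 14182, chromosome 8, 25518759 to 25575718), whose main sites in lung are mesenchymal, ranged from 38.9 to 47.3 CPM in Flox and from 31.3 to 49.6 CPM in EpithelialKO. The EpithelialKO mice fell on both sides, with mice 17 and 18 above all Flox mice and mice 20, 21 and 22 below them. Its log2 fold change was -0.13 (95% interval -0.42 to 0.16; edgeR adjusted p = 0.752). It was -0.22 without mouse 17, -0.205 without mouse 18, -0.053 without mouse 20 and -0.054 without mouse 22.

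Levels of different genes were compared as CPM per kilobase of the longest RefSeq transcript in GENCODE vM21. Receptor shares were computed per mouse from these values. Fgfr2 made up 45.5 ± 4.26% and Fgfr3 36.5 ± 4.72% of the summed receptor level in Flox (SD, n = 5), with 11.2 ± 0.80% for Fgfr1 and 6.81 ± 0.99% for Fgfr4. In EpithelialKO the shares were 44.7 ± 3.27% for Fgfr2, 41.8 ± 4.04% for Fgfr3, 9.65 ± 1.96% for Fgfr1 and 3.82 ± 1.25% for Fgfr4 (SD, n = 5). The Fgfr4 share was 5.63 to 8.22% in Flox mice and 1.76 to 5.10% in EpithelialKO mice, again without overlap, while the shares of the other 3 receptors overlapped. These shares are descriptions of the same counts, were not tested and depend on the length used. By the length of all exons joined, the order of the receptors in Flox changed. The Flox means were then 16.7 for Fgfr3, 14.65 for Fgfr2, 4.94 for Fgfr4 and 4.40 for Fgfr1, in CPM per kilobase.

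**Figure D2:**
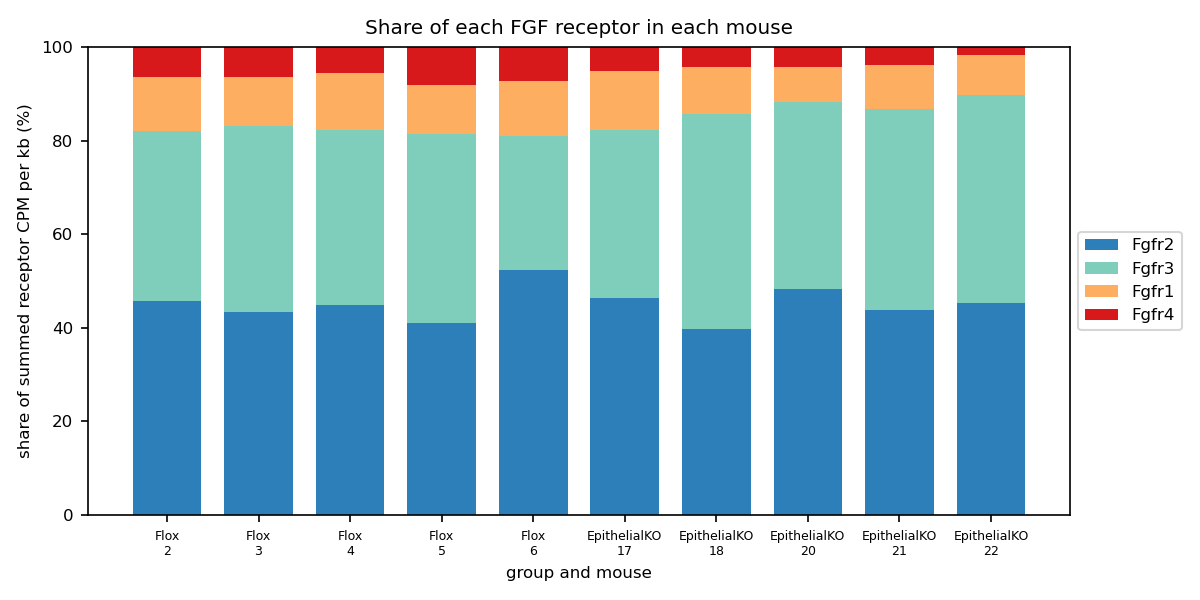
Share (%, vertical axis) of each FGF receptor in the CPM per kilobase of the longest transcript, summed over all 4 receptors, as a stacked bar for each mouse. The Fgfr4 share at the top of each bar is 5.63 to 8.22% in Flox and 1.76 to 5.10% in EpithelialKO mice, and Fgfr2 with Fgfr3 fill most of every bar.

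The feedback genes did not move as a group. Etv5 (Entrez 104156, chromosome 16, 22381313 to 22439570), which in adult lung is highest in AT2 cells, stood at 175, 129, 210, 94.7 and 189 CPM in Flox mice 2, 3, 4, 5 and 6. EpithelialKO mice 17, 18, 20, 21 and 22 had 187, 216, 209, 220 and 155 CPM. The Flox mice were widely spread, with mouse 5 lowest, and the groups overlapped. The log2 fold change was 0.31 ± 0.18 (SE; 95% interval -0.085 to 0.70; edgeR adjusted p = 0.524). It was 0.57 without Flox mice 4 and 6 (adjusted p = 0.513) and 0.17 without Flox mouse 5, and over all 18 alternatives the adjusted p lay between 0.214 and 0.679. The summed level of 13 AT2 markers other than Etv5 was 52921 to 64736 CPM in Flox and 64257 to 79680 CPM in EpithelialKO; its part in the Etv5 difference was not tested.

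Spry4 and Spry2 encode Sprouty proteins that inhibit signalling from receptor tyrosine kinases to ERK. Spry4 (Entrez 24066, chromosome 18) stood at 9.54, 25.2, 17.7, 28.2 and 23.2 CPM in Flox mice 2, 3, 4, 5 and 6. EpithelialKO mice 17, 18, 20, 21 and 22 had 17.6, 12.1, 12.9, 13.1 and 10.8 CPM. The EpithelialKO mice lay close together below the Flox mean, but Flox mouse 2 was the lowest of all 10. The log2 fold change was -0.64 ± 0.24 (SE; 95% interval -1.14 to -0.14; edgeR adjusted p = 0.276). Without Flox mouse 2 it was -0.825 (edgeR adjusted p = 0.111), and over the 18 alternatives the adjusted p lay between 0.111 and 0.612. It was -0.491 in limma-voom (unadjusted p = 0.0834) and -0.506 without Flox mouse 5 (edgeR unadjusted p = 0.0506), so neither fit had an unadjusted p under 0.05. The part of the lower endothelial and stromal marker levels given above in the Spry4 difference was not tested. Spry2 (Entrez 24064, chromosome 14, 105891947 to 105896819) ranged from 37.4 to 50.9 CPM in Flox and from 30.3 to 48.0 CPM in EpithelialKO. The groups overlapped widely, with a log2 fold change of -0.01 and a 95% interval from -0.29 to 0.26 (edgeR adjusted p = 0.981). Leaving out Flox mouse 5 gave 0.068, leaving out EpithelialKO mouse 22 gave 0.079, and leaving out Flox mice 4 and 6 together gave -0.066.

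**Figure D3:**
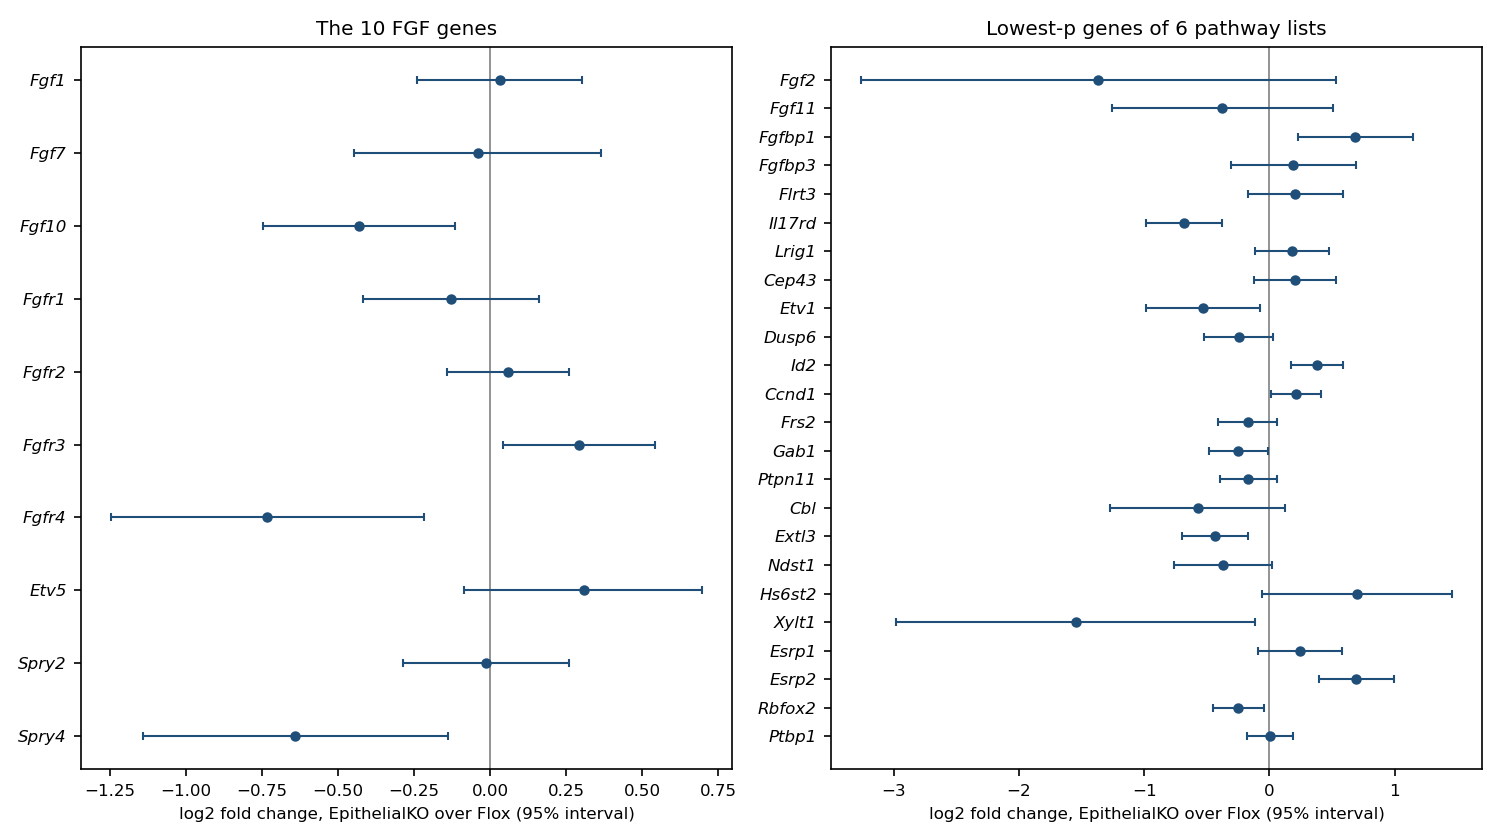
Log2 fold change of EpithelialKO over Flox (horizontal axis) with its 95% interval from edgeR, for the 10 FGF genes (left) and for the 4 genes of lowest p in each of 6 pathway lists (right); the scales of the panels differ. Among the 10, the intervals of Fgf10, Fgfr4 and Spry4 lie below 0 and that of Fgfr3 above 0, but none of the genes in either panel passed the adjusted threshold.

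Per transcript length, Fgf1 was the most abundant of the 10, at 73.2 ± 9.44 CPM per kilobase in Flox (SD, n = 5). It was followed in Flox by Etv5 (40.1), Fgfr2 (35.1), Fgfr3 (28.1), Spry2 (19.9), Fgfr1 (8.66), Fgf7 (6.15), Fgfr4 (5.27), Spry4 (4.37) and Fgf10 (4.04), all as mean CPM per kilobase. In this order the ranges over Flox mice did not overlap between Fgf1 and Etv5, between Fgfr2 and Fgfr3 or between Spry2 and Fgfr1. All other neighbours overlapped. In EpithelialKO the order was the same except that Spry4 (2.80 CPM per kilobase) came after Fgf10 (3.00). The place of a gene depended on the length used: by coding length or by all exons joined, 5 of the 10 kept their rank, with Fgf1 and Etv5 first and second each time.

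**Figure D4:**
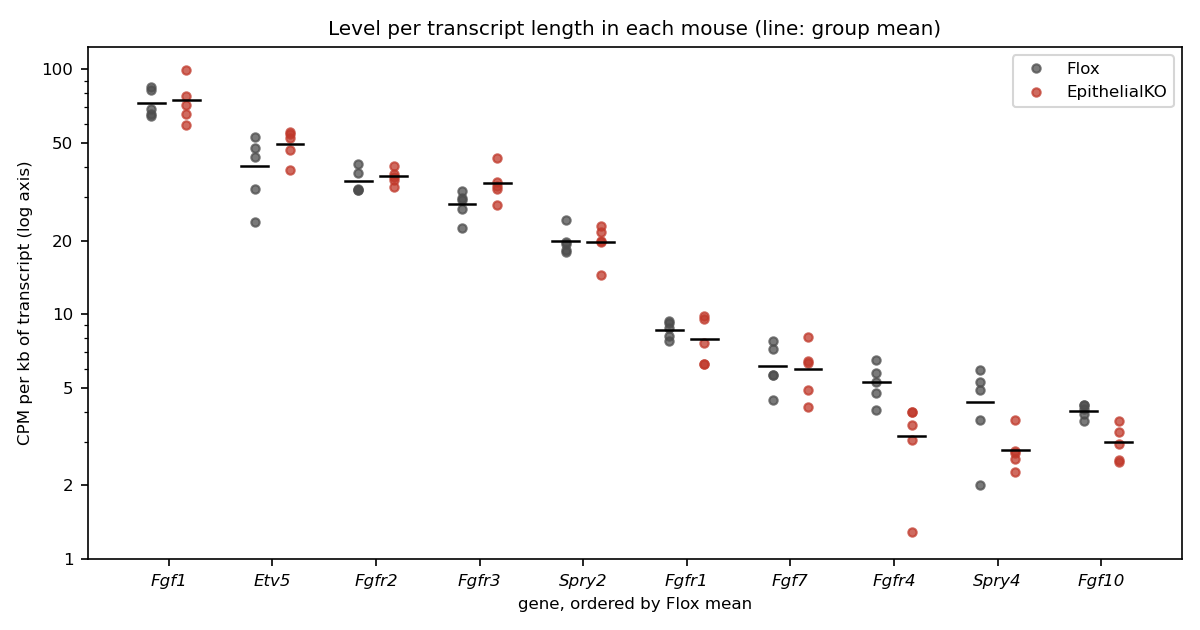
CPM per kilobase of transcript (vertical axis, log scale) of the 10 genes in each mouse, ordered by the Flox mean; points are mice and lines are group means. Fgf1 is highest in both groups (means 73.2 in Flox and 74.8 in EpithelialKO), and Fgf10, Spry4 and Fgfr4 are lowest.

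The rest of the pathway was described by 6 lists with 91 genes, of which 90 were in the table and 71 were tested. None passed the threshold in edgeR. At an unadjusted p under 0.05 there were 4 higher and 6 lower of the 71, where 5.87% of all tested genes were higher and 6.52% lower. DESeq2 called 3 (Il17rd, Esrp2 and Id2) and limma-voom called 0. The median log2 fold change was -0.05, with 43 negative and 28 positive, against 49.9% negative over all tested genes.

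Il17rd and Esrp2 came closest to the threshold, and in both the groups did not overlap. Il17rd, which encodes the membrane protein Sef, an inhibitor of FGF signalling that the pathway itself induces, stood at 40.2, 33.6, 30.8, 31.4 and 38.2 CPM in Flox mice 2, 3, 4, 5 and 6. It stood at 17.9, 27.5, 22.7, 23.5 and 17.0 CPM in EpithelialKO mice 17, 18, 20, 21 and 22. The log2 fold change was -0.68 ± 0.14 (SE; edgeR adjusted p = 0.0859). Esrp2, which encodes an epithelial splicing factor that favours the IIIb form of Fgfr2, stood at 21.3, 18.4, 23.9, 16.6 and 23.9 CPM in Flox mice 2, 3, 4, 5 and 6 and at 31.0, 36.5, 27.8, 41.6 and 31.4 CPM in EpithelialKO mice 17, 18, 20, 21 and 22. Its log2 fold change was 0.69 ± 0.14 (SE; edgeR adjusted p = 0.0792). A pattern with every EpithelialKO mouse above every Flox mouse was shown by 1.63% of all tested genes, and the reverse pattern by 1.48%. Of the 71 tested pathway genes, 1 lay above in this way and 2 lay below. Both genes passed the threshold in DESeq2, with no count filter and with 1 surrogate variable, and neither passed with limma-voom, without Flox mice 4 and 6 or with any 1 mouse left out. Beside Esrp2, all 14 pan-epithelial markers had a positive fold change, with a median log2 value of 0.36 and summed levels of 1583.5 to 1924 CPM in Flox and 1875 to 2413 CPM in EpithelialKO. Beside Il17rd, the median was -0.39 for the 13 endothelial, -0.48 for the 10 smooth muscle and pericyte and -0.30 for the 14 fibroblast markers. Their part in the differences of Esrp2 and Il17rd was not tested. For the pathway genes, calls but not fold changes are given without Flox mice 4 and 6.

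The other lists held 0 genes past the threshold. Of the 21 genes listed as other ligands and binding proteins 8 were tested. The 13 not tested were all Fgf genes, not all of which need act as receptor ligands, with 0 to 69 counts over all 10 mice. Fgfbp1, a carrier that releases FGFs from the matrix, averaged 23.0 ± 8.40 CPM over the Flox mice and 37.2 ± 8.63 CPM over the EpithelialKO mice (SD, n = 5 each; log2 fold change 0.69 ± 0.215, SE; edgeR adjusted p = 0.21). The remaining genes of lowest p in that list were Fgf2 (-1.37 ± 0.895, SE), Fgf11 (-0.38 ± 0.42) and Fgfbp3 (0.19 ± 0.24), as log2 fold changes. Among the co-receptors and modulators 8 were tested, and after Il17rd the lowest p belonged to Cep43, a centrosomal protein once named for a fusion with FGFR1 (0.20 ± 0.155), to Lrig1, which dampens receptor tyrosine kinases (0.18 ± 0.14), and to Flrt3, which binds FGF receptors (0.21 ± 0.18).

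Of 16 other induced and feedback genes tested, Id2, an inhibitor of basic helix-loop-helix factors that marks distal lung epithelium, went from 105 ± 10.6 to 136 ± 14.3 CPM (SD, n = 5 each) without passing (0.38 ± 0.10 on the log2 scale, SE; edgeR adjusted p = 0.1395). The ETS factor Etv1 had -0.53 ± 0.22, the cyclin gene Ccnd1 0.21 ± 0.09 and the ERK phosphatase gene Dusp6 -0.245 ± 0.13. Of this list 7 had a positive and 9 a negative fold change. All 20 genes that carry the signal from the receptor to ERK were tested, 14 with a negative fold change. The values furthest out in p were those of the adaptor Gab1 (-0.25 ± 0.11), the ubiquitin ligase Cbl (-0.57 ± 0.325), the phosphatase Ptpn11 (-0.17 ± 0.11) and the receptor substrate Frs2 (-0.17 ± 0.11). Of 15 genes of heparan sulfate synthesis and editing 12 had a negative fold change. Extl3, a glycosyltransferase that starts the chains, went from 69.2 ± 8.62 to 51.3 ± 8.72 CPM (SD, n = 5 each) with no overlap between groups (-0.43 ± 0.125, SE; edgeR adjusted p = 0.166). Every EpithelialKO mouse lay below every Flox mouse, as in 1.48% of all tested genes. Ndst1, which begins their sulfation, had -0.37 ± 0.18, Hs6st2 0.70 ± 0.36 and Xylt1 -1.545 ± 0.68, the last at most 2.96 CPM in any mouse. Besides Esrp2, the splicing regulators Esrp1 (0.245 ± 0.16), Rbfox2 (-0.25 ± 0.10) and Ptbp1 (0.00 ± 0.09) did not pass.

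The genes most like Fgf10, Fgfr2 and Etv5 across the mice were found by the Pearson correlation of log2 CPM after removal of the group means, over 10 mice and 13705 genes. They are the highest of that many, so no p is given, and all values share the library scaling of each mouse. For Fgf10 they were Xylt2 (r = 0.978, Spearman rho 0.976), which encodes a xylosyltransferase that starts heparan sulfate chains, Rnf122 (0.942) and Hid1 (0.938). For Fgfr2 they were Mcc (0.934), Fryl (0.896) and Ube2c (0.885), and for Etv5 they were Zfp39 (0.986), Mindy4 (0.963) and Stard4 (0.954). None of the 9 passed the threshold between the groups, and their lowest edgeR adjusted p was 0.153, for Mcc.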

How the data were processed

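Polyadenylated RNA of whole lungs was extracted with Trizol and copied with random hexamers, per the labels' protocols. The submitters' processing notes name cutadapt, HISAT2 and the build GRCm38; no version, counting tool or strand setting is given in the sources used here. The deposited values are unnormalized whole-number counts per Entrez gene, 1 column per mouse. Symbols matched 25275 of 27179 genes (RefSeq, GRCm38.p6). No 2 of the libraries agreed within counting noise (45 pairs).

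Genes were filtered with filterByExpr, scaled by TMM and compared in edgeR 4.0.16 (quasi-likelihood F test, group as the only term, R 4.3.3), with Benjamini-Hochberg adjustment over 15301 genes and a threshold of 0.05. Alternatives used DESeq2 1.42.0, limma 3.58.1 and sva 3.50.0. On simulated data for this comparison (15301 genes, 200 changed in each of 3 runs) edgeR recovered 34.7% of genes at a fold of 1.5 and 68.3% at 2, and 6.65% of calls were false. The members, lists and alternatives were chosen with earlier results of these data known. Named genes are the 10 members, the 4 of lowest p and any called gene per pathway list, and the 3 nearest in pattern to Fgf10, Fgfr2 and Etv5.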

Additional observations from a re-analysis of the deposited data

Results flagged for a closer look

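Of 68 groups of 5 mice checked (34 genes in each group), 4 held 1 mouse whose distance from the nearest other mouse was more than 0.71 of the range of its group; chance gives about 1 in 20. Spry2 stood at 50.9 CPM in Flox mouse 5, with the next Flox mouse at 41.3 CPM, and its log2 fold change was 0.07 without that mouse. Cep43 stood at 33.6 CPM in the same mouse, with the next at 22.5 CPM. Fgfbp3 stood at 6.75 CPM in Flox mouse 2, with the next at 4.80 CPM. Cbl, the ubiquitin ligase that targets activated receptors, stood at 19.0 CPM in EpithelialKO mouse 22, with the next EpithelialKO mouse at 10.1 CPM.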

How the results depend on the processing

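The count of 0 among the 10 FGF genes held in all 19 alternatives, where 3 to 5 of them had an unadjusted p under 0.05. Over all genes edgeR called 6; the count was 279 in DESeq2, 32 in limma-voom, 34 with no count filter, 83 with 1 surrogate variable, 38 at a threshold of 0.1, 0 without Flox mice 4 and 6 (1207 genes at an unadjusted p under 0.05), and 0 to 48 when 1 mouse was left out, 48 without Flox mouse 5. Of the other pathway genes 3 were called in DESeq2, and 2 with no count filter, with 1 surrogate variable and at 0.1. The direction of Fgf10, Fgfr1, Fgfr2, Fgfr3, Fgfr4, Etv5 and Spry4 was the same in 18 of 18 fits. Values near 0 changed sign: Fgf1 was -0.005 in limma-voom and ranged from -0.092 to 0.104 with 1 mouse left out; Fgf7 was 0.001 without Flox mice 4 and 6 and ranged from -0.172 to 0.064; Spry2 was 0.002 with upper quartile scaling, 0.044 in limma-voom and ranged from -0.075 to 0.079. The order of levels kept 5 of 10 ranks by coding length and 5 by joined exons. Where the fits differ, the cause was not tested. No paired analysis was possible because the labels give no pairing of mice between the groups. In simulated data, with 200 changed genes picked at random in each run, about 34.7% of changes of 1.5-fold were found. Changes of that size or smaller can therefore be missed at this number of mice. The difference of Fgf10, at 0.741 of the Flox level, was smaller, and its own recovery was not simulated.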

Other observations

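Some mice held the lowest or highest value in more of the 10 FGF genes than others did. EpithelialKO mouse 22 had the lowest value of all 10 mice in 4 of them (Fgf7, Fgf10, Fgfr4 and Spry2) and the highest in Fgf1, while Flox mouse 5 had the highest value in 3 (Fgfr4, Spry2 and Spry4) and the lowest in Etv5. Without mouse 22 the log2 fold change was -0.37 for Fgf10, -0.53 for Fgfr4, 0.08 for Spry2 and -0.57 for Spry4. Flox mouse 5 had the lowest total, 14983829 counts. No test bears on these mice, and the labels give nothing that sets them apart. How often each mouse was lowest or highest over all tested genes was not computed. The members are also not independent of each other: after removal of the group means, Fgfr4 and Spry2 had r = 0.917 over the mice.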
